A study of Mus musculus with 12 samples.

Results

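MHC class II presentation was followed through 8 genes, chosen by name: the classical class II chains H2-Aa, H2-Ab1 and H2-Eb1, the peptide exchange factor chains H2-DMa and H2-DMb1, the invariant chain Cd74, the class II transactivator Ciita and the co-stimulatory ligand Cd86. They are 8 of the 55487 genes in the raw count table, and all 8 passed the filter on low counts that left 15425 genes for testing. The libraries were made from CD11b-positive cells that were pulled out of papain-digested cerebral cortex with magnetic beads, with 1 library per mouse. There were 4 groups of 3 mice: WT mice given vehicle (veh, PBS), WT mice given rh Bri2 BRICHOS, App NL-G-F mice given veh and App NL-G-F mice given rh Bri2 BRICHOS.

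In the App NL-G-F strain a humanized and mutated Aβ sequence was knocked into the mouse App gene. The mutated App is thus expressed under the control of the gene's own promoter. Aβ42 is cleaved from its product, and the paper describes the accumulation of Aβ as extracellular. The labels give the sex of the App NL-G-F mice only, as male, but the paper states that all mice of the experiment were male. The paper names no strain beside the App NL-G-F mice and their background strain, which is given below with the class II chains. Rh Bri2 BRICHOS is a recombinant human chaperone domain, used as the R221E variant at 10 mg/kg by intravenous injection. All mice, controls included, received 24 injections over 12 weeks from the age of 9 months and were sacrificed after another 4 weeks without treatment. CD11b is carried by microglia and also by border macrophages, monocytes and some dendritic cells, so the isolated pool can hold several cell types. In such bulk libraries a larger number of positive cells and more RNA per cell cannot be told apart.

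Class II molecules are pairs of an α and a β chain that display peptides from the endosome to CD4+ T cells. In the endoplasmic reticulum the invariant chain, encoded by Cd74, occupies the peptide groove; cathepsins later degrade it, and H2-DM exchanges the remaining fragment for a peptide. Transcription of these genes depends on CIITA, which does not bind DNA itself but joins the RFX, CREB and NF-Y factors at the X and Y boxes of their promoters. Resting microglia carry little class II, and its rise around amyloid is a known feature of reactive microglia.

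The 3 chain genes lie together on chromosome 17 of GRCm38, as annotated by GENCODE. H2-Ab1 is at chromosome 17, 34257689 to 34269419, plus strand, ENSMUSG00000073421. H2-Aa is at chromosome 17, 34282744 to 34287823, minus strand, ENSMUSG00000036594, and H2-Eb1 at chromosome 17, 34305867 to 34316674, plus strand, ENSMUSG00000060586. H2-DMa (chromosome 17, 34119541 to 34139101, plus strand, ENSMUSG00000037649) and H2-DMb1 (chromosome 17, 34153072 to 34160230, plus strand, ENSMUSG00000079547) lie in the same region. Ciita is on chromosome 16 (10480059 to 10528418, plus strand, ENSMUSG00000022504), and Cd86 also on chromosome 16 (36603869 to 36666081, minus strand, ENSMUSG00000022901). The exons of H2-DMa share 360 bases with Brd2 and those of Ciita 329 bases with Dexi, both on the opposite strand. H2-DMb1 has a close paralog, H2-DMb2, so reads could be divided between them.

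RefSeq promoters of GRCm38.p6 were at hand for 4 of the 8 genes: H2-Aa, H2-Eb1, H2-DMa and H2-DMb1. The 120 bases before the start of H2-Aa and H2-Eb1, the chain genes among them, are shown because both hold the X and Y box letters through which CIITA acts; the capitals mark CTNGNAAC (the X box core), GATTGG (the Y box) and CCAATC (the Y box letters on the other strand).
H2-Aa, chr17:34287824-34287943, minus strand: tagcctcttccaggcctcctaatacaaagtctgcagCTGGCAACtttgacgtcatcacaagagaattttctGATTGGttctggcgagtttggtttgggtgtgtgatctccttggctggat
H2-Eb1, chr17:34305747-34305866, plus strand: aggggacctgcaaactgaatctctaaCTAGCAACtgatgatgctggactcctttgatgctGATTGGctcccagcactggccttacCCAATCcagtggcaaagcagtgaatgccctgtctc
The X box core began 84 bases before the start of H2-Aa and 94 before that of H2-Eb1, and 27 and 26 bases, respectively, separated it from the Y box. In H2-DMb1 the match CTAGTAAC began 97 bases before the start, and GATTGG followed after 27 bases. Of the 2 annotated starts of H2-DMa, 1 had GATTGG, 199 bases before it, and neither had the X box core. Searched on both strands of the 250 bases before each start, GATTGG was found in 14.6% of all 32851 promoters, CTNGNAAC in 10.9% and both in 1.63%. The letters CTNGNAAC were chosen after the sequences were seen; the pattern listed first, CCTNGNNAC, was present in 13.5% of promoters and, among these 4 genes, in H2-DMb1 alone. A match describes letters in a window and not binding.

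Total counts were between 12433402 and 17889654 per library, and 3 counts, taken as the limit of detection, correspond to 0.169 to 0.227 CPM, the counts scaled to the normalized library size. The defining microglial genes were abundant in each library, with 10 of 10 listed markers tested and a summed level of 24097 to 28699 CPM. The 6 listed T cell markers were all under the filter, with a sum of at most 0.985 CPM. Astrocyte markers summed to 424 to 769.6 CPM in WT mice and 649 to 4477 CPM in App NL-G-F mice. Replicates are separate mice; p-values are from edgeR's quasi-likelihood test with Benjamini-Hochberg adjustment over all tested genes, a gene is called at an adjusted p under 0.05, and errors of log2 fold changes are standard errors.

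The first question was how class II genes differ between the strains without treatment. In App NL-G-F mice given veh 6 of the 8 genes were higher than in veh-treated WT mice and none was lower, beside 20.1% of all tested genes called higher. In 7 of the 8 all App NL-G-F libraries were above all WT libraries, beside 25.5% of all tested genes. The median log2 fold change of the 8 was 1.26, against -0.02 over all tested genes. The chains and the invariant chain rose by 3.23- to 7.40-fold, whereas the H2-DM chains rose by less and Ciita and Cd86 did not pass the test.

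H2-Aa, the α chain of the I-A molecule, was at 114, 126 and 156 CPM in the 3 veh-treated WT mice. In App NL-G-F mice given veh it was at 862, 518 and 824 CPM. All App NL-G-F libraries lay above all WT libraries, with mouse 2 the lowest among them. The log2 fold change was 2.48 ± 0.27 (adjusted p = 2.62e-05), a 5.57-fold difference with a 95% interval of 3.70 to 8.37. Its partner H2-Ab1, the β chain of I-A, was at 101, 114 and 131 CPM in veh-treated WT mice and at 643, 420.1 and 659 CPM in App NL-G-F mice given veh, again without overlap. H2-Ab1 rose by 2.32 ± 0.24 on the log2 scale (adjusted p = 2.10e-05).

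H2-Eb1 encodes the β chain of the I-E molecule. Mice of the C57BL/6 haplotype lack a functional α chain for it and so display no I-E, and H2-Ea-ps, the annotated remnant of that gene, had 1 count in 1 library and none in the other 11. H2-Eb1 transcripts were nevertheless at 99.4, 107 and 132 CPM in veh-treated WT mice and at 412, 264 and 419 CPM in App NL-G-F mice given veh. The groups did not overlap, and the log2 fold change was 1.69 ± 0.26 (adjusted p = 0.000404).

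Cd74 (chromosome 18, 60803848 to 60812652, plus strand, ENSMUSG00000024610) was the most abundant of the 8 genes per length. It was at 317, 335 and 376 CPM in veh-treated WT mice and at 2839, 1975 and 2798 CPM in App NL-G-F mice given veh, so the groups were far apart. Its 7.40-fold difference (95% interval 5.29 to 10.4, adjusted p = 1.63e-06) ranked 144 among the 15425 tested genes, while that of H2-Aa ranked 243 and that of H2-Ab1 282.

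The H2-DM chains moved by less. H2-DMa was at 122, 129 and 126 CPM in veh-treated WT mice and at 178, 173 and 217 CPM in App NL-G-F mice given veh. H2-DMb1 was at 59.6, 60.8 and 57.6 CPM and 83.5, 79.0 and 90.6 CPM in the same groups. Neither gene had an overlap between the strains, and the log2 fold changes were 0.59 ± 0.10 for H2-DMa (adjusted p = 0.000584) and 0.51 ± 0.08 for H2-DMb1 (adjusted p = 0.000408). The 95% intervals, 0.38 to 0.80 and 0.33 to 0.68, lay below the intervals of all 3 classical chains and Cd74.

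Ciita, the regulator of class II transcription, was scarce, with 61 to 202 counts per library. It was at 4.45, 3.62 and 5.89 CPM in veh-treated WT mice and at 10.2, 4.20 and 10.2 CPM in App NL-G-F mice given veh. Mice 1 and 3 of the App NL-G-F group lay above all WT mice, but mouse 2 lay among them. The log2 fold change was 0.82 ± 0.37 and did not pass the adjustment (adjusted p = 0.103, edgeR). Without mouse 2 of the App NL-G-F group it was 1.14 with an edgeR adjusted p of 0.0208. That mouse had the lowest value of its group in 7 of the 8 genes. Cd86, which binds CD28 and CTLA4 on T cells, was at 190.1, 199 and 196 CPM in veh-treated WT mice and at 227, 216 and 206 CPM in App NL-G-F mice given veh. The groups did not overlap, but the difference of 0.15 ± 0.06 on the log2 scale narrowly missed the threshold (adjusted p = 0.0524); without mouse 3 of the App NL-G-F group it was 0.18 with an adjusted p of 0.0371.

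**Figure D1:**
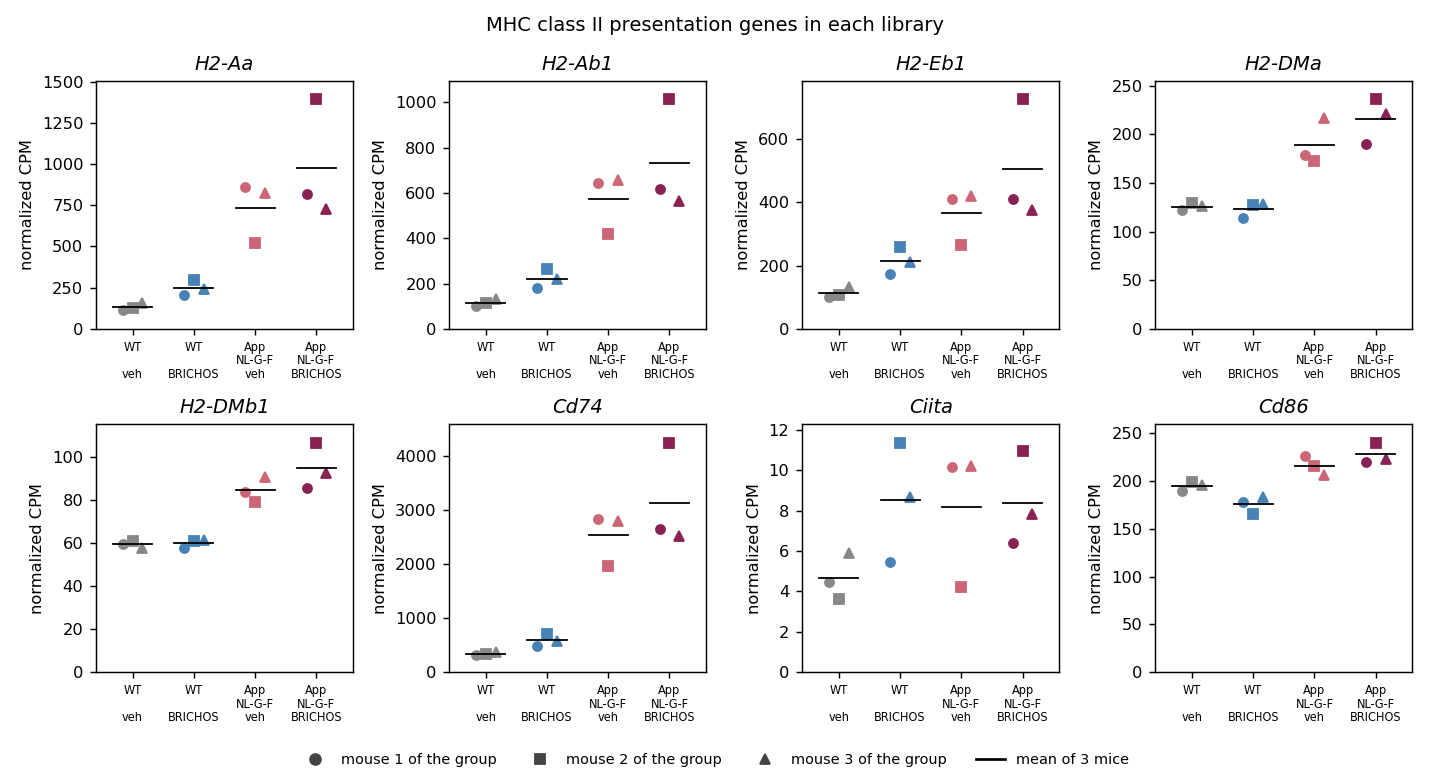
Normalized CPM of the 8 class II presentation genes in the 12 libraries, with the group on the horizontal axis and 1 panel per gene. Points are mice, with a symbol for the replicate number, and the line is the mean of 3 mice; the vertical axes are linear, start at 0 and differ between genes. The chains and Cd74 form steps from veh-treated WT to rh Bri2 BRICHOS-treated WT to App NL-G-F mice, and mouse 2 of the treated App NL-G-F group is the highest of its group in all 8 panels.

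The same strain comparison in the rh Bri2 BRICHOS-treated mice used 6 other libraries. Here 7 of the 8 genes were called higher in App NL-G-F mice, beside 20.8% of all tested genes, and none lower. In 7 of the 8 the strains did not overlap, with App NL-G-F higher, beside 25.3% of all tested genes. The median log2 fold change was 1.02 against -0.04 over all tested genes. H2-Aa was at 207, 297 and 243 CPM in treated WT mice and 817, 1392 and 728 CPM in treated App NL-G-F mice, a difference of 1.98 ± 0.26 (adjusted p = 0.000113). Cd74 was at 493, 701 and 570.5 CPM and 2646, 4257 and 2531 CPM, a difference of 2.42 ± 0.22 (adjusted p = 5.28e-06). In both genes every treated App NL-G-F mouse was above every treated WT mouse. The remaining differences were 1.73 ± 0.24 for H2-Ab1, 1.23 ± 0.26 for H2-Eb1, 0.80 ± 0.10 for H2-DMa and 0.66 ± 0.08 for H2-DMb1, with adjusted p-values of at most 0.00258 (edgeR).

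Among the treated mice Cd86 was called higher in App NL-G-F mice and Ciita was not called. Neither gene was called in the veh-treated mice, and the interaction given below called neither. Ciita was at 5.48, 11.4 and 8.70 CPM in treated WT mice and 6.39, 10.9 and 7.86 CPM in treated App NL-G-F mice. The groups overlapped almost fully, and the log2 difference of -0.02 had a 95% interval of -0.80 to 0.75 (adjusted p = 0.965). The classical chains were called higher between the treated strains and Ciita was not; the difference between these effects was not tested. Cd86 was at 178, 166 and 184 CPM in treated WT mice and 220.1, 240.3 and 224 CPM in treated App NL-G-F mice, without overlap, and rose by 0.38 ± 0.06 on the log2 scale (adjusted p = 0.000251).

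**Figure D2:**
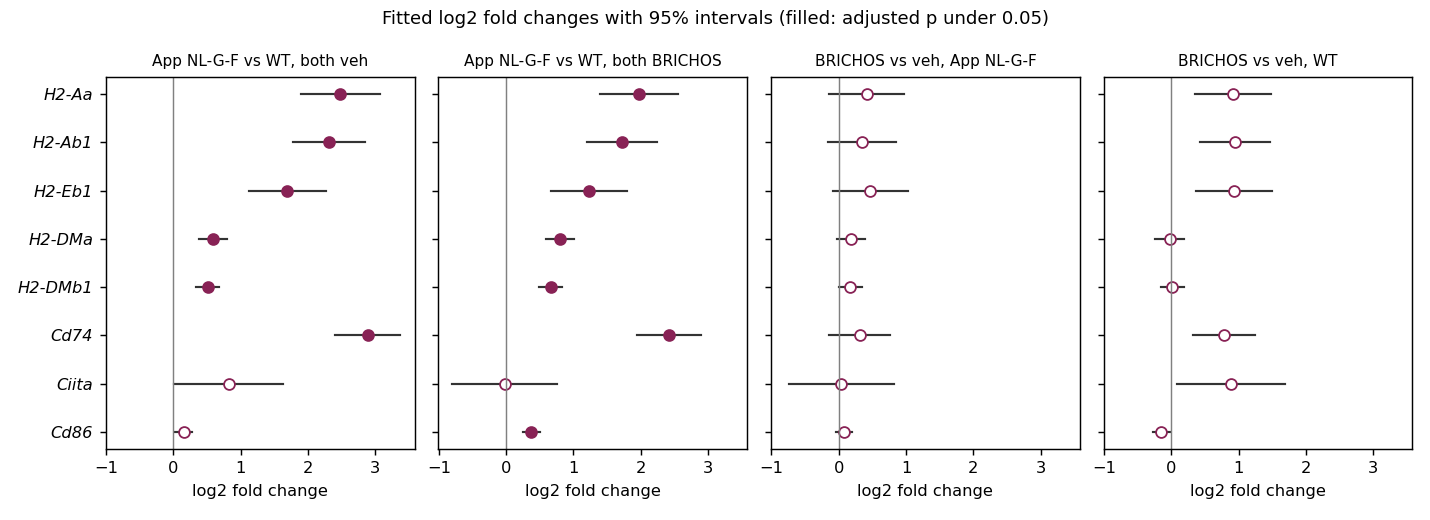
Fitted log2 fold changes (horizontal axis) of the 8 genes (vertical axis) in the 4 comparisons, with 95% intervals as bars; filled points have an adjusted p under 0.05. Both strain comparisons have filled points for the chains, H2-DM and Cd74, and both treatment comparisons have none.

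Levels can be set against each other after division by the merged exon length. In veh-treated WT mice Cd74 was at 204 ± 18.01 CPM per kb (SD, n = 3), H2-Eb1 at 58.1 ± 8.76, Cd86 at 53.2 ± 1.19, H2-Ab1 at 44.8 ± 5.86, H2-DMa at 36.4 ± 1.05, H2-DMb1 at 35.3 ± 0.960, H2-Aa at 34.8 ± 5.63 and Ciita at 0.488 ± 0.120 CPM per kb. In this group H2-Eb1 and Cd86, as well as H2-DMa, H2-DMb1 and H2-Aa, lay within their spread of each other. In App NL-G-F mice given veh the order after Cd74 (1511 ± 290.3) was H2-Ab1 (224 ± 52.0), H2-Aa (194 ± 49.7), H2-Eb1 (188 ± 45.2), Cd86 (59.1 ± 2.83), H2-DMa (54.9 ± 6.93), H2-DMb1 (50.2 ± 3.50) and Ciita (0.860 ± 0.363 CPM per kb). There the 3 classical chains lay within their spread of each other and well above Cd86 and H2-DM.

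Ratios within a library show which genes moved together. The 2 chains of I-A kept a ratio of H2-Aa to H2-Ab1 of 0.748 to 0.806 in the 6 WT mice and 0.834 to 0.929 in the 6 App NL-G-F mice, per length. H2-DMa and H2-DMb1 were near equal per length in every library, with a ratio of 0.961 to 1.17. The ratio of H2-Eb1 to H2-Ab1, in contrast, was 1.24 to 1.34 in WT mice and 0.829 to 0.945 in App NL-G-F mice. Per kb of merged exon, H2-Eb1 was therefore above H2-Ab1 in every WT library and below it in every App NL-G-F library. The order in WT mice depends on the division by length. In treated WT mice H2-Eb1 was at 174, 259 and 211 CPM, each below H2-Ab1 at 182, 263 and 219 CPM. The near equality of H2-DMa and H2-DMb1 depends on the same division. Their mean CPM were 126 and 59.3 in veh-treated WT mice and 189 and 84.3 in App NL-G-F mice given veh. The ratio of Cd74 to H2-Ab1 was 4.41 to 4.82 in veh-treated and 3.99 to 4.13 in rh Bri2 BRICHOS-treated WT mice, and 6.43 to 7.19 in App NL-G-F mice. The ratio of H2-Aa to H2-DMa spanned 0.850 to 5.36 over the 12 libraries, and that of Ciita to H2-Ab1 was 0.00809 to 0.0121 in WT mice and 0.00269 to 0.00426 in App NL-G-F mice. These ratios are descriptions without a test.

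**Figure D3:**
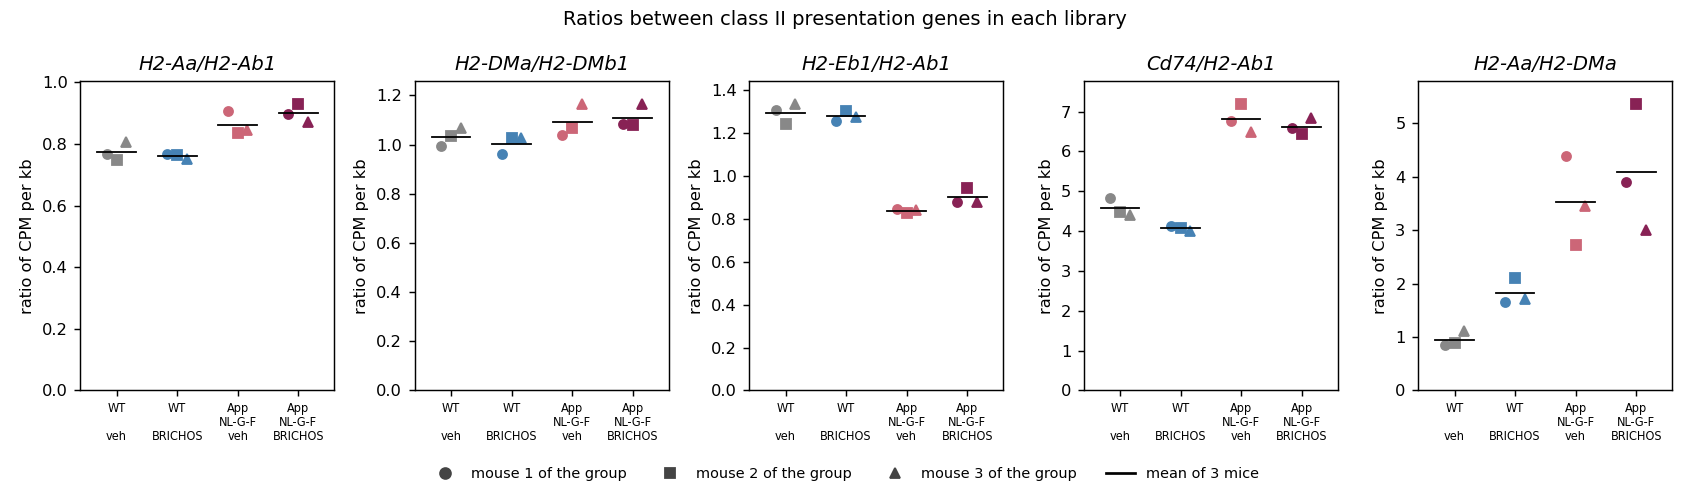
Ratios of CPM per kb of merged exon (vertical axes, linear, from 0) between pairs of class II presentation genes in each library, by group; points are mice and lines are means of 3 mice. The ratio of H2-Eb1 to H2-Ab1 is above 1 in all WT libraries and below 1 in all App NL-G-F libraries, whereas the ratio of H2-DMa to H2-DMb1 stays near 1.

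Class II is also carried by border macrophages, dendritic cells, monocytes and B cells, whose marker genes were read in the same libraries. Border macrophage markers, among them Mrc1, Cd163 and Lyve1, summed to 428 to 502 CPM in veh-treated WT mice and 191 to 268 CPM in App NL-G-F mice given veh. Of the 8 markers, 6 fell with the App NL-G-F genotype and none rose, beside 16.9% of all tested genes called lower. Dendritic cell markers summed to 65.0 to 72.8 CPM and 34.9 to 37.6 CPM. In WT mice most of that sum was Cd209a, at 42.2 ± 5.76 and 13.9 ± 2.36 CPM in the same order, which fell together with Flt3 and Itgae, whereas Zbtb46 (7.01 ± 0.422 and 6.69 ± 0.725 CPM), Batf3 and Ccr7 were not called, so that 3 of 6 tested markers were lower and none higher. The monocyte markers summed to 169.7 to 199 CPM and 129 to 143 CPM, with 4 of 6 called lower. The B cell markers summed to 397 to 441 CPM and 359 to 414 CPM, with overlap between the strains; nearly all of it was Ighm, and the others summed to 26.9 to 28.1 CPM and 12.8 to 14.9 CPM. Of the 7 tested B cell markers, Cd79b and Ighd were called lower and none higher. The summed H2-Aa, H2-Ab1 and H2-Eb1 in the same groups were 314 to 418 CPM and 1202 to 1917 CPM. The part of these cells in the class II values was not tested. Among the microglial markers, 2 of 10 were called higher and 7 lower.

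The same lists were read in the rh Bri2 BRICHOS-treated strains. Border macrophage markers summed to 581 to 697 CPM in treated WT mice and 197 to 266 CPM in treated App NL-G-F mice, with 7 of 8 called lower, beside 21.8% of all tested genes. Of the dendritic cell, monocyte and B cell markers 3 of 6, 5 of 6 and 5 of 7 were called lower and none higher, and of the microglial markers 5 of 10 were lower and 2 higher. Astrocyte markers moved with the strain in the veh-treated mice. All 7 rose in App NL-G-F mice given veh, to 1396 to 4477 CPM from 424 to 597 CPM, beside 20.1% of all tested genes called higher. In the treated mice 1 of the 7 rose, beside 20.8% of all tested genes called higher. The summed class II chains and the astrocyte sum were 1917 and 4477 CPM, 1202 and 4006 CPM, and 1902 and 1396 CPM in mice 1, 2 and 3 of the veh-treated App NL-G-F group. They were 1842 and 1875 CPM, 3130.1 and 649 CPM, and 1671 and 1237 CPM in the treated one. Mouse 1 had the highest of both sums in the veh-treated group, and mouse 2 had the highest chain sum and the lowest astrocyte sum in the treated group; the part of astrocyte RNA in the class II values was not tested.

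**Figure D4:**
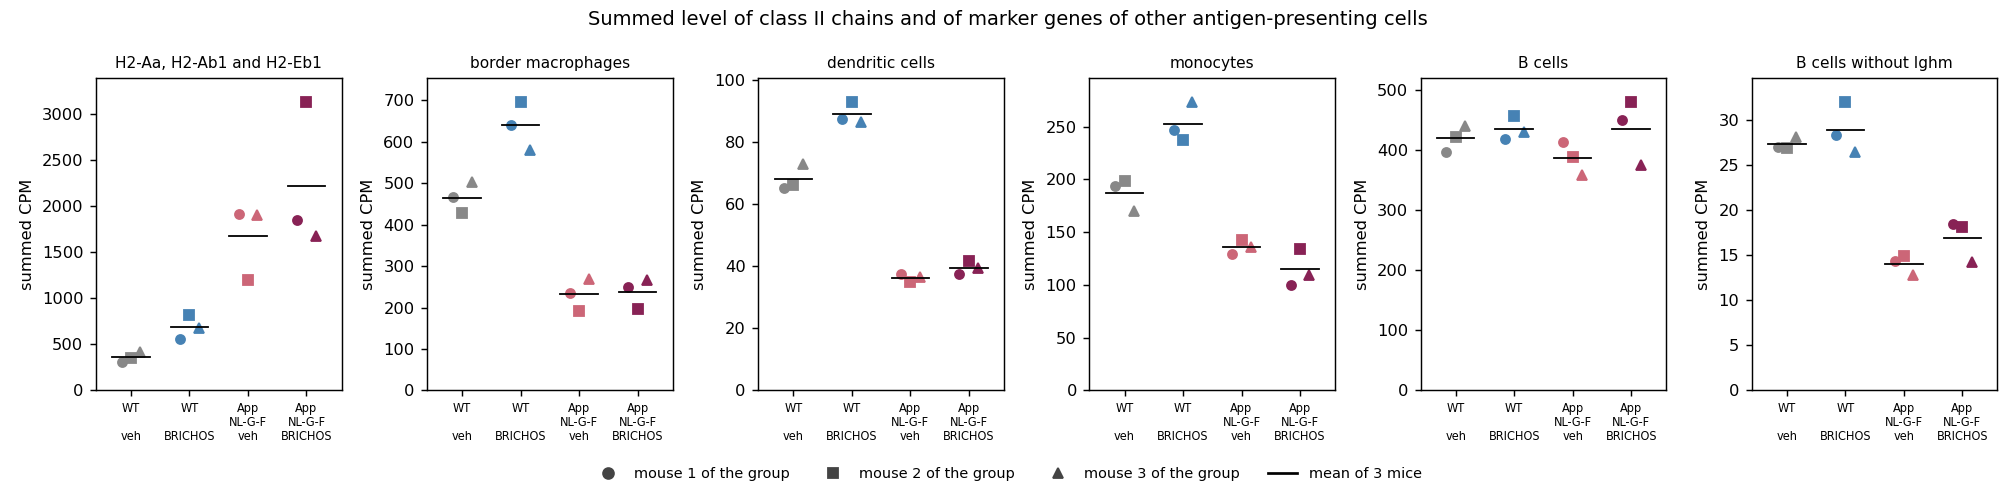
Summed CPM (vertical axes, linear, from 0) of the 3 class II chains and of marker genes of border macrophages, dendritic cells, monocytes and B cells (all listed genes, and without Ighm) in each library, by group; points are mice and lines are means of 3 mice. The chains are highest in App NL-G-F mice, where the border macrophage, dendritic cell and monocyte sums are lowest, the full B cell sums of the strains overlap, and within WT mice the chains and these first 3 marker sums are higher after rh Bri2 BRICHOS.

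Next, the effect of rh Bri2 BRICHOS in App NL-G-F mice was compared. No member was called in either direction (edgeR), beside 0% of all tested genes called higher and 0.00648% called lower; DESeq2 called none of the 8 either. At an unadjusted p under 0.05 there was also none, against 3.18% of tested genes higher and 7.67% lower. All 8 log2 estimates were positive, between 0.04 for Ciita and 0.47 for H2-Eb1, and the groups overlapped in every gene, whereas 6.37% of all tested genes were higher and 7.09% lower without overlap. For H2-Aa the values already given place mice 1 and 3 of the treated group within the range of the veh group and mouse 2 above it. The log2 difference was 0.41 ± 0.25 with a 95% interval of -0.14 to 0.97 (adjusted p = 0.620).

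Mouse 2 of the treated App NL-G-F group stood apart in this comparison and was the highest of its group in all 8 genes. Without that mouse H2-Aa differed by 0.08, H2-Ab1 by 0.05 in place of 0.35, H2-Eb1 by 0.12 in place of 0.47 and Cd74 by 0.04 in place of 0.31 on the log2 scale. The 95% intervals with all mice reached 0.897 to 1.81-fold for H2-Ab1 and 0.906 to 1.70-fold for Cd74. These bounds hold for the fit with mouse 2 and are not given without it. For H2-DMa, H2-DMb1 and Cd86 the intervals were narrower, at 0.985 to 1.32-fold, 0.998 to 1.26-fold and 0.969 to 1.15-fold. Neither border macrophage nor dendritic cell markers were called in this comparison, and all 7 astrocyte markers were lower in the treated mice at an unadjusted p under 0.05 without passing the adjustment; their part in the class II values was not tested.

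In WT mice the treated group had the higher values of the classical chains, although no gene passed the adjustment. By edgeR, 0% of all tested genes were called in either direction, and DESeq2 called none of the 8. H2-Ab1 was at 101, 114 and 131 CPM in veh-treated and 182, 263 and 219 CPM in treated WT mice, so that each treated mouse was above each veh-treated mouse. The difference was 0.94 ± 0.24 on the log2 scale, with a 95% interval of 0.43 to 1.46 (adjusted p = 0.239, edgeR). H2-Aa (0.91 ± 0.26), H2-Eb1 (0.93 ± 0.26) and Cd74 (0.78 ± 0.21) differed by a like amount, each without overlap between the groups, and had edgeR adjusted p-values of 0.243 to 0.253. Ciita differed by 0.88 ± 0.37 (adjusted p = 0.401), and mouse 1 of the treated group lay within the range of the veh group.

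In total 5 of the 8 genes were higher at an unadjusted p under 0.05, beside 6.55% of all tested genes, and 4 were higher without overlap, beside 8.36%. H2-DMa and H2-DMb1 stood apart, with log2 differences of -0.03 and 0.01 and 95% intervals of -0.24 to 0.19 and -0.16 to 0.19. Cd86, the 1 gene of the 8 that was lower at an unadjusted p under 0.05, was lower in every treated WT mouse than in every veh-treated one (log2 difference -0.15 ± 0.06, adjusted p = 0.354, edgeR), beside 4.83% of tested genes lower at that unadjusted level and 9.19% lower without overlap.

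The same WT mice differed in markers of other cells. Border macrophage markers summed to 428 to 502 CPM in veh-treated and 581 to 697 CPM in treated WT mice, without overlap, and 6 of the 8 were higher at an unadjusted p under 0.05. The dendritic cell sum was 65.0 to 72.8 CPM and 86.4 to 92.9 CPM, and the monocyte sum 169.7 to 199 CPM and 238 to 274 CPM, both also without overlap. Of these lists 2 of 6 and 4 of 6 markers were higher at that p, and 2 of the 7 B cell markers, while no microglial marker was; over all tested genes 6.55% were higher at that p and 8.36% higher without overlap. Ccr2, a chemokine receptor of monocytes, differed by 1.16 ± 0.19 (adjusted p = 0.133), and Lyve1, a receptor of border macrophages, by 0.68 ± 0.16 (adjusted p = 0.224). No marker passed the adjustment (edgeR), and the part of these cells in the class II values of treated WT mice was not tested.

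An interaction contrast asked whether the treatment acted differently in the 2 strains. No member passed the adjustment (edgeR), beside 0.00648% of all tested genes called lower, and DESeq2 called none of the 8. The log2 estimates for H2-Aa, H2-Ab1, H2-Eb1 and Cd74 were -0.50 ± 0.36, -0.59 ± 0.33, -0.46 ± 0.36 and -0.47 ± 0.29, with edgeR adjusted p-values of 0.426 to 0.591. For Ciita the estimate was -0.84, the largest in size of the 8 and also not called. Cd86 was the 1 gene of the 8 with an unadjusted p under 0.05 (0.22 ± 0.08, adjusted p = 0.238), beside 5.23% of tested genes higher and 9.54% lower at that level.

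Beyond the 8 genes, 39 others of class II presentation were listed by role, of which 34 were tested; their changes are given on the log2 scale. In App NL-G-F mice given veh 11 of the 34 rose and 8 fell against veh-treated WT mice, and in the treated mice 12 rose and 7 fell. The shares over all tested genes were 20.1% and 16.9%, and 20.8% and 21.8%. The median log2 fold change of the 34 was -0.05 in veh-treated and 0.05 in treated mice, next to -0.02 and -0.04 over all tested genes.

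Among the other class II chains, H2-Oa and H2-Ob, which form the H2-O dimer that restrains H2-DM, both rose. H2-Oa was at 29.0 ± 1.67 CPM (SD, n = 3) in veh-treated WT and 51.9 ± 3.97 CPM in App NL-G-F mice given veh, a log2 fold change of 0.84 ± 0.16 (adjusted p = 0.00150). H2-Ob rose by 0.63 ± 0.10 (adjusted p = 0.000390). H2-DMb2, the paralog of H2-DMb1, fell by 0.64 ± 0.19 on the log2 scale from a low level of 7.93 ± 0.927 CPM (adjusted p = 0.0238). The directions of the 3 genes were the same in the treated mice. H2-Eb2 had at most 6 counts per library.

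Of the 7 genes of loading and turnover, 2 rose and 2 fell. Ctss encodes cathepsin S, the protease that trims the invariant chain in most antigen-presenting cells, and rose by 0.50 ± 0.08 in App NL-G-F mice given veh (adjusted p = 0.000304). Ctsl, encoding cathepsin L, rose by 1.86 ± 0.07 (adjusted p = 9.61e-09), from 815 ± 49.0 to 2962 ± 148 CPM. March1, a ubiquitin ligase that removes class II and CD86 from the cell surface, fell by 0.76 ± 0.08 on the log2 scale (adjusted p = 2.28e-05), from 158 ± 10.1 to 93.3 ± 7.64 CPM. Lgmn, an endosomal protease, fell by 0.25 ± 0.06 (adjusted p = 0.00478). Ifi30, Sppl2a and March8 were not called, with log2 differences of 0.03, -0.05 and -0.05. In treated mice Ctss and Ctsl rose and March1 fell, and Lgmn was not called (-0.06, adjusted p = 0.387).

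The regulators were divided by function. None of the 6 genes of the RFX complex and NF-Y that hold CIITA at the promoter was called in veh-treated mice; their log2 differences ran from -0.26 for Rfxap to 0.11 for Nfyc. In treated mice Rfxank fell by 0.29 and Nfya rose by 0.29 on the log2 scale (adjusted p = 0.0361 and 0.0204). Of the interferon-γ pathway, which induces Ciita, the transcription factor Irf1 rose by 1.24 ± 0.20 in veh-treated mice (adjusted p = 0.000478). The receptor chain Ifngr2 rose by 0.24 ± 0.08 and the other chain, Ifngr1, fell by 0.64 ± 0.06 (adjusted p = 0.0271 and 1.20e-05). Jak1 and Creb1 fell by 0.20 and 0.25. All these but Creb1 were called in the same direction in the treated mice. Ifng itself had at most 4 counts per library.

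Among the co-stimulatory and co-inhibitory ligands, Cd274, which encodes the inhibitory ligand PD-L1, was at 27.9, 27.1 and 25.6 CPM in veh-treated WT mice and 119, 108 and 94.8 CPM in App NL-G-F mice given veh. It rose by 4.00-fold, with a 95% interval of 3.18 to 5.04 (adjusted p = 1.46e-06), and the groups were far apart. Tnfsf9, the ligand of 4-1BB, rose by 2.53 ± 0.26 (adjusted p = 1.56e-05). Cd80, the relative of Cd86, and Icosl fell by 0.30 and 0.47 (adjusted p = 0.0496 and 0.00140), and Cd40 was not called (-0.52 ± 0.34). Of the listed receptors, Lag3, which binds class II, rose by 0.95 ± 0.05 (adjusted p = 1.38e-07), from 662 ± 17.8 to 1281 ± 61.1 CPM, and Cd28 rose by 1.99 ± 0.35 (adjusted p = 0.000914) from 2.97 ± 0.567 CPM. Cd4 was not called in veh-treated mice and fell by 1.14 ± 0.22 in treated ones (adjusted p = 0.00173). These receptors were listed for their role on T cells, whose own markers were under the filter here.

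**Figure D5:**
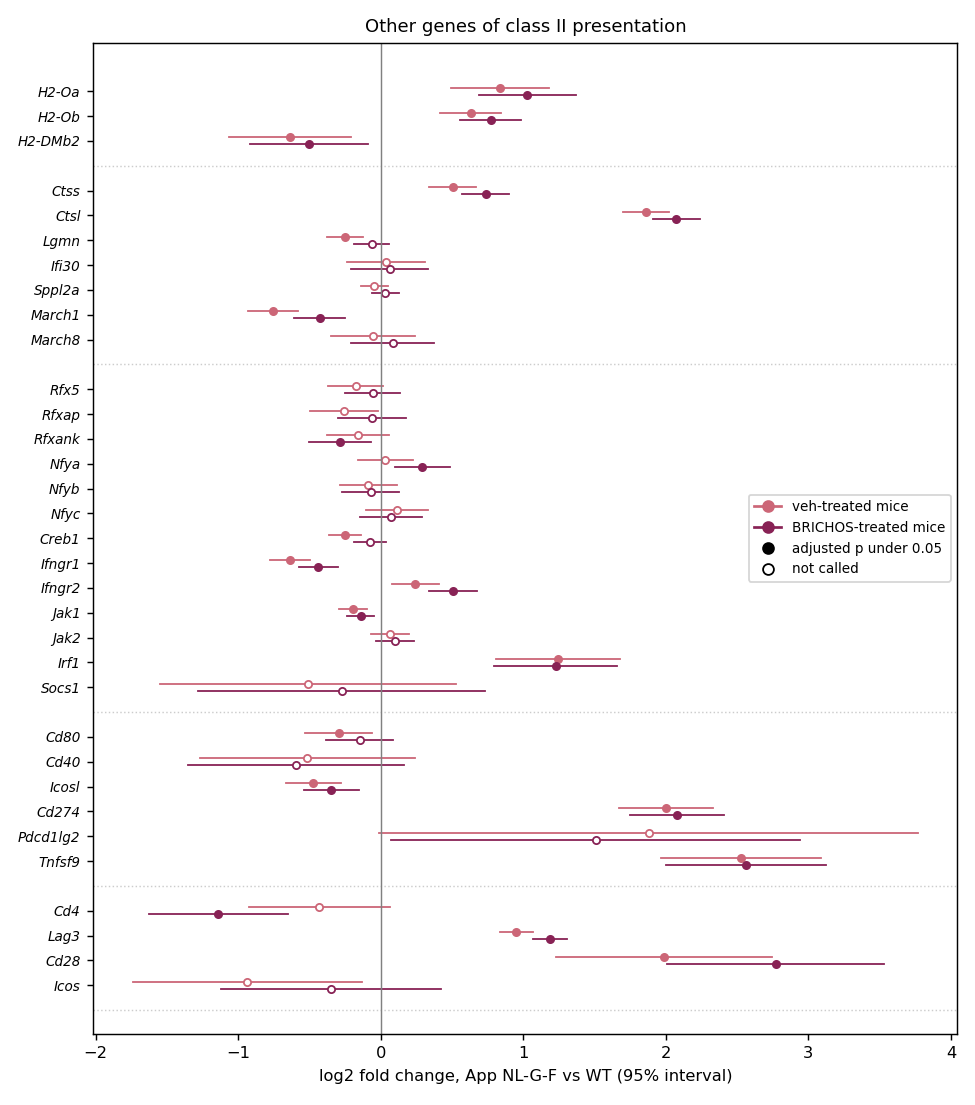
Log2 fold changes of App NL-G-F against WT mice (horizontal axis, bars are 95% intervals) for tested genes of class II presentation other than the 8, in blocks by role (other chains, loading and turnover, regulators, ligands, receptors), for veh-treated and rh Bri2 BRICHOS-treated mice; filled points have an adjusted p under 0.05. Ctsl, Irf1, Cd274, Tnfsf9, Lag3 and Cd28 lie to the right of 0 in both, and March1, Ifngr1 and Icosl to the left.

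The treatment comparisons gave no call in these 34 genes in either strain (edgeR; DESeq2 also gave none). At an unadjusted p under 0.05, 2 of the 34 were higher and none lower in treated App NL-G-F mice, beside 3.18% and 7.67% of all tested genes, and 1 was higher and 6 lower in treated WT mice, beside 6.55% and 4.83%. Of the 6, March1 differed by -0.31 ± 0.08 (adjusted p = 0.243, edgeR) and Lag3 by -0.17 ± 0.05 (adjusted p = 0.286, edgeR). Cd4 was the 1 higher gene (0.59 ± 0.22, adjusted p = 0.342, edgeR).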

How the data were processed

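RNA was sequenced from CD11b-positive cortical cells of 12 mice with a stranded mRNA kit. The authors removed adaptors with Cutadapt and mapped to GRCm38 with STAR (2.6.1d in the submitters' processing notes); reads were counted with featureCounts 1.5.1, and the authors deposited raw read counts per Ensembl gene without normalization. The strand setting of the counting is not given in the sources used here. Libraries were matched to groups by their names.

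Symbols came from GENCODE M21. Genes were filtered with edgeR's filterByExpr (minimum count 10), scaled by TMM and fitted with a mean per group over all 12 libraries (R 4.3.3, edgeR 4.0.16, glmQLFTest). The study used DESeq2, which served as an alternative (1.42.0). The 5 contrasts tested were both strain comparisons, both treatment comparisons and their interaction. The standard error is the log2 fold change divided by the square root of F. CPM use TMM factors, and log2 CPM a prior count of 2. The detection limit is a fixed 3 counts and enters no test or error. Figures were drawn with matplotlib 3.10.9, and tables joined with pandas 2.3.3 in Python 3.11.15. Counts were also simulated with the design of the veh-treated strain comparison. There 86 of 100 genes changed by 2-fold and 96 of 100 changed by 4-fold were found among 15066 genes, with 8 false calls. The changed genes were drawn from genes with higher counts only, so these shares do not extend to scarce genes. They were also far fewer than the genes called in the data.

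The members, gene lists and tests were chosen with earlier results of these data known. The genes named are the 8 members, the members of 5 lists of class II presentation genes, the markers of 7 cell types (microglia, border macrophages, dendritic cells, monocytes, B cells, T cells and astrocytes) and the 10 genes most alike in level. Marker sums add the CPM of all listed genes; for B cells a sum without Ighm, added after the values were seen, is given as well. A gene that these lists hold is counted with its list but not reported here by itself. Alternatives were DESeq2, its size factors, no filter or a stricter one, fits of the compared groups only, the threshold in the study's methods, a replicate block and leaving out each library.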

Additional observations from a re-analysis of the deposited data

How the results depend on the processing

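Of 520 recomputed log2 fold changes of the 8 genes, 516 kept their side of the threshold and none that was called reversed. The other 4 concern the veh-treated strain comparison and passed the threshold: Ciita without mouse 2 of the App NL-G-F group (adjusted p = 0.0208, edgeR) and Cd86 with at least 10 counts in every library (0.0482), with only the compared groups fitted (0.0467) and without mouse 3 of the App NL-G-F group (0.0371); over all alternatives the adjusted p ran from 0.0208 to 0.289 for Ciita and 0.0371 to 0.204 for Cd86. Of the members, 6 to 7 were called in the veh-treated and 7 in the rh Bri2 BRICHOS-treated strain comparison whichever single library was left out, and none in the treatment comparisons or the interaction. The threshold in the study's methods (unadjusted p under 0.05 and an absolute log2 fold change of at least 1) leaves out smaller changes by construction. It gave 4 members in each strain comparison, in place of 6 in veh-treated and 7 in treated mice. Among the 34 other genes it gave 5 in place of 19 in veh-treated and 9 in place of 19 in treated mice. Over all tested genes it called 12.2% in veh-treated and 17.3% in treated mice, in place of 37% and 42.5%. The paper's results, however, name only a p-value under 0.05 for its gene counts. At an unadjusted p under 0.05 (edgeR), 8 members were higher in the veh-treated and 7 in the treated strain comparison. Of the 15425 tested genes, 3743 and 3722 were higher at that p. DESeq2 called 1 of the 34 genes in the interaction, where edgeR called 0; the cause was not tested. Over all tested genes DESeq2 called 119 and 80 genes for the treatment of App NL-G-F mice and of WT mice and 244 for the interaction, where edgeR called 1, 0 and 1; without a filter edgeR called 25, 12 and 107. Single libraries also moved the edgeR counts: without mouse 3 of the veh-treated App NL-G-F group 162 genes were called for the treatment of App NL-G-F mice and 88 for the interaction, without mouse 3 of the veh-treated WT group 62 for the interaction, and without mouse 1 of the treated WT group 5 for the treatment of WT mice.

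Equally numbered libraries come from different mice and were not treated as pairs. In no comparison did every pair correlate above 0.1 in its deviations from the group means (range -0.01 to 0.23). Whether equally numbered libraries shared a processing step was not tested. With the replicate number as a block, 6 and 7 members were called in the strain comparisons and 0 in the others, and 5991 and 6822 of all genes in place of 5710 and 6560. Ciita rests on 61 to 202 counts per library, the fewest of the 8 genes; whether depth or the spread between mice limits its call was not tested.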

Other observations

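The tested genes whose levels over the 12 libraries most resembled the mean of H2-Aa, H2-Ab1, H2-Eb1 and Cd74 were ranked by the root-mean-square difference of their centred log2 CPM, as a description without a test. The closest 10 outside the 8 genes were Wfdc17, Lilrb4a, Anxa2, Slc39a2, Gpr65, Nfil3, Cpq, Ptger4, Phlda1 and Dact1, with differences of 0.249 to 0.333. Wfdc17, a small secreted protein of macrophages, was at 12.0 ± 1.24, 19.3 ± 1.92, 45.6 ± 5.82 and 57.6 ± 12.8 CPM (SD, n = 3) in WT mice given veh, WT mice given rh Bri2 BRICHOS, App NL-G-F mice given veh and App NL-G-F mice given rh Bri2 BRICHOS. Lilrb4a, an inhibitory receptor of myeloid cells, was at 38.1 ± 3.57, 68.6 ± 6.70, 209.8 ± 14.9 and 227 ± 40.9 CPM in the same order. Ptger4, a receptor of prostaglandin E2, was at 8.22 ± 1.53, 13.8 ± 0.565, 48.3 ± 7.78 and 66.4 ± 17.0 CPM. All 10 were higher in App NL-G-F than in WT mice, which follows from how they were chosen. By the same measure H2-DMa ranked 979, H2-DMb1 1261, Ciita 1667 and Cd86 3408 among all tested genes; the 4 genes that make up the mean are close to it by construction.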
